A study of Homo sapiens with 6 samples.

Results

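Kasumi-1 cells are a human leukemia line of the AML M2 subtype with the t(8;21) translocation, and I13 is a compound that its makers describe as a histone deacetylase (HDAC) inhibitor. The genes described here encode the initiation factors eIF1 to eIF6 and the elongation factors eEF1 and eEF2, with their paralogs and the regulators named after them. They were chosen by name, as the protein-coding genes of GENCODE release 29 whose symbol starts with EIF1 to EIF6 or with EEF1 or EEF2, without the EIF2AK kinases. By this rule 61 of the 32364 genes in the table were members. The 6 libraries were compared between groups. Of these, 3 came from control cells, given the solvent DMSO by the study's methods, and 3 from cells given I13 at 0.5 µM. The incubation lasted 48 h, in a single cell line at a single dose and time. The labels do not say whether the libraries of a group came from separate cultures, so the p-values measure the spread between these libraries, which may be technical. Of the 61 members, 59 had a mean of at least 0.1 FPKM, the fragments on a gene scaled to its exon length and to the mapped fragments of the library, and were tested. EEF1A2 and EIF4E3 were not.

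Translation of most cellular mRNAs begins when eIF4F binds the 5′ cap. The small ribosomal subunit, loaded with eIF1, eIF1A, eIF3, eIF5 and the eIF2 complex that carries the initiator tRNA, is then recruited and scans to the start codon. After subunit joining, eEF1A delivers each aminoacyl-tRNA and eEF2 moves the ribosome along. Phosphorylation of eIF2 and sequestration of eIF4E by its binding proteins are the best known brakes on the process. Most of this control acts on proteins, which mRNA levels do not measure.

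Many mRNAs of the translation machinery start with a 5′ terminal oligopyrimidine (TOP) tract, which puts their translation under control of the mTOR pathway. The windows of EEF1A1, EEF2, EEF1B2, EIF3F and EIF4B are shown because these members belong to the known TOP mRNAs, and those of EIF3D and EIF2S3 because they are described in detail. Each runs from 10 bases before the RefSeq start (GRCh38.p14) to 20 bases from it, written 5′ to 3′, and the capitals mark the tract.
EEF1A1, chr6:73521013-73521042, minus strand: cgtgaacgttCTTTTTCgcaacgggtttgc
EEF2, chr19:3985444-3985473, minus strand: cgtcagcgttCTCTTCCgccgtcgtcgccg
EEF1B2, chr2:206159885-206159914, plus strand: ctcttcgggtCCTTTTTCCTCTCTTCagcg
EIF3F, chr11:7987327-7987356, plus strand: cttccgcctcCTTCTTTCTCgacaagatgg
EIF4B, chr12:53006446-53006475, plus strand: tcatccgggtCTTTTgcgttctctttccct
EIF3D, chr22:36529147-36529176, minus strand: cgcatgtttcCTCTTTTCCTggtttctcaa
EIF2S3, chrX:24054946-24054975, plus strand: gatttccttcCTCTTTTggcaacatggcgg
A tract was counted where the first transcribed base was C and at least 4 further C or T bases followed it without a break, read on the strand of the gene. RefSeq start sites were found for 48 of the 61 members, and 13 of these 48 (27.1%) had a tract at 1 of their starts, against 1404 of 27305 genes in the same table (5.14%). The 5 members of the TOP list with a start site all had one. The other 8 were EIF2A, EIF2D, EIF2S3, EIF2S3B, EIF3D, EIF3K, EIF3M and EIF4A2. The window of EIF2S3B, a copy of EIF2S3 on chromosome 12, shared 28 of its 30 bases with that of EIF2S3. The 13 members with a tract had a median level of 95.5 FPKM, and 7 of them reached 80 FPKM. The 34 tested members whose start lacked it had a median level of 15.5 FPKM, and 5 of them reached 80 FPKM. A tract in a RefSeq start is a match of letters and not a measured transcript end.

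The table held between 15281052 and 17221345 mapped fragments per library, recovered from the FPKM values and exon lengths. Control replicate 3 and I13 replicate 2 stood apart from the other 4 libraries on the first principal component (43.3% of the variance over 4133 genes averaging 10 FPKM or more), and I13 and control separated on the second (20.5%). No source names a batch for this pair. All 8 myeloid blast markers were in the table, with MPO, the granule peroxidase, between 10241 and 12449.7 FPKM. CEBPA, CD33 and RUNX1T1 of this list averaged only 5.27, 12.3 and 13.5 FPKM, below the EPCAM level given below. Of the erythroid (4 of 5 in the table, 1 of them at 0), T cell (3 of 3) and B cell markers (2 of 3), the summed levels were at most 0.201, 2.12 and 2.60 FPKM in any library. Among the markers of stromal and epithelial cells COL1A1 and COL1A2 were at 0, and EPCAM had 20.8 to 26.5 FPKM in the control and 22.2 to 26.2 FPKM in the I13 libraries. The part of other cells in the results was not tested, and in bulk RNA a lower share of cells that express a gene cannot be told apart from less of its RNA per cell.

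No translation factor gene passed the threshold of the study's methods in the fit made here between I13 and control. The study itself reported genes up and down between these groups, by its own calling, which was not rerun here. The legend of its heatmap gives a p under 0.05 without naming a correction. Requiring an adjusted p under 0.05 and a log2 fold change beyond 0.58 in either direction, limma called 0 of the 59 members, where it called 0% of the 18726 genes tested. An unadjusted p under 0.05 was found for 1 member, EIF3D, lower in I13, where 5.14% of all genes tested passed in either direction. Limma's voom on the recovered fragments, run on 58 members, also passed 0 and 1, where 0.0290% and 5.37% of the 13811 genes in that fit passed. The 1 member was again EIF3D, at an unadjusted p of 0.04998 from voom, barely under the threshold, and an adjusted p of 0.932. In the limma fit on FPKM the lowest adjusted p of a member was 0.947. The log2 fold change was above 0 for 27 members (45.8%, against 51.8% of all genes tested) and below 0 for 32, with a median of -0.0055 against 0.0058 for all genes tested. Control and I13 values did not overlap for 4 members (6.78%), where 9.52% of all genes tested did not overlap. Of these 4, EIF5AL1 was higher in I13 (4.88% of all genes were) and EIF3D, EIF2B2 and EIF3CL were lower (4.64% were). These shares were near or under the background and are no result about the members.

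The fold changes were small, and their intervals were narrow. Among the 39 members with a mean of at least 10 FPKM the median absolute log2 fold change was 0.048, against 0.049 for all 4133 genes at that level. All 39 had a 95% interval inside the range from -0.58 to 0.58, as did 4078 of the 4133 genes (98.7%). The lowest bound was -0.32, for EIF3A, and the highest 0.32, for EIF5A, which are changes to 0.801 and 1.25 times the control level. Of all 59 tested members, 53 had an interval inside that range. The exceptions were EIF3CL, EIF4A1, EIF4EBP3, EIF5A2, EEF1E1 and EEF1AKMT2, each with 136 or fewer fragments in any library.

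**Figure D1:**
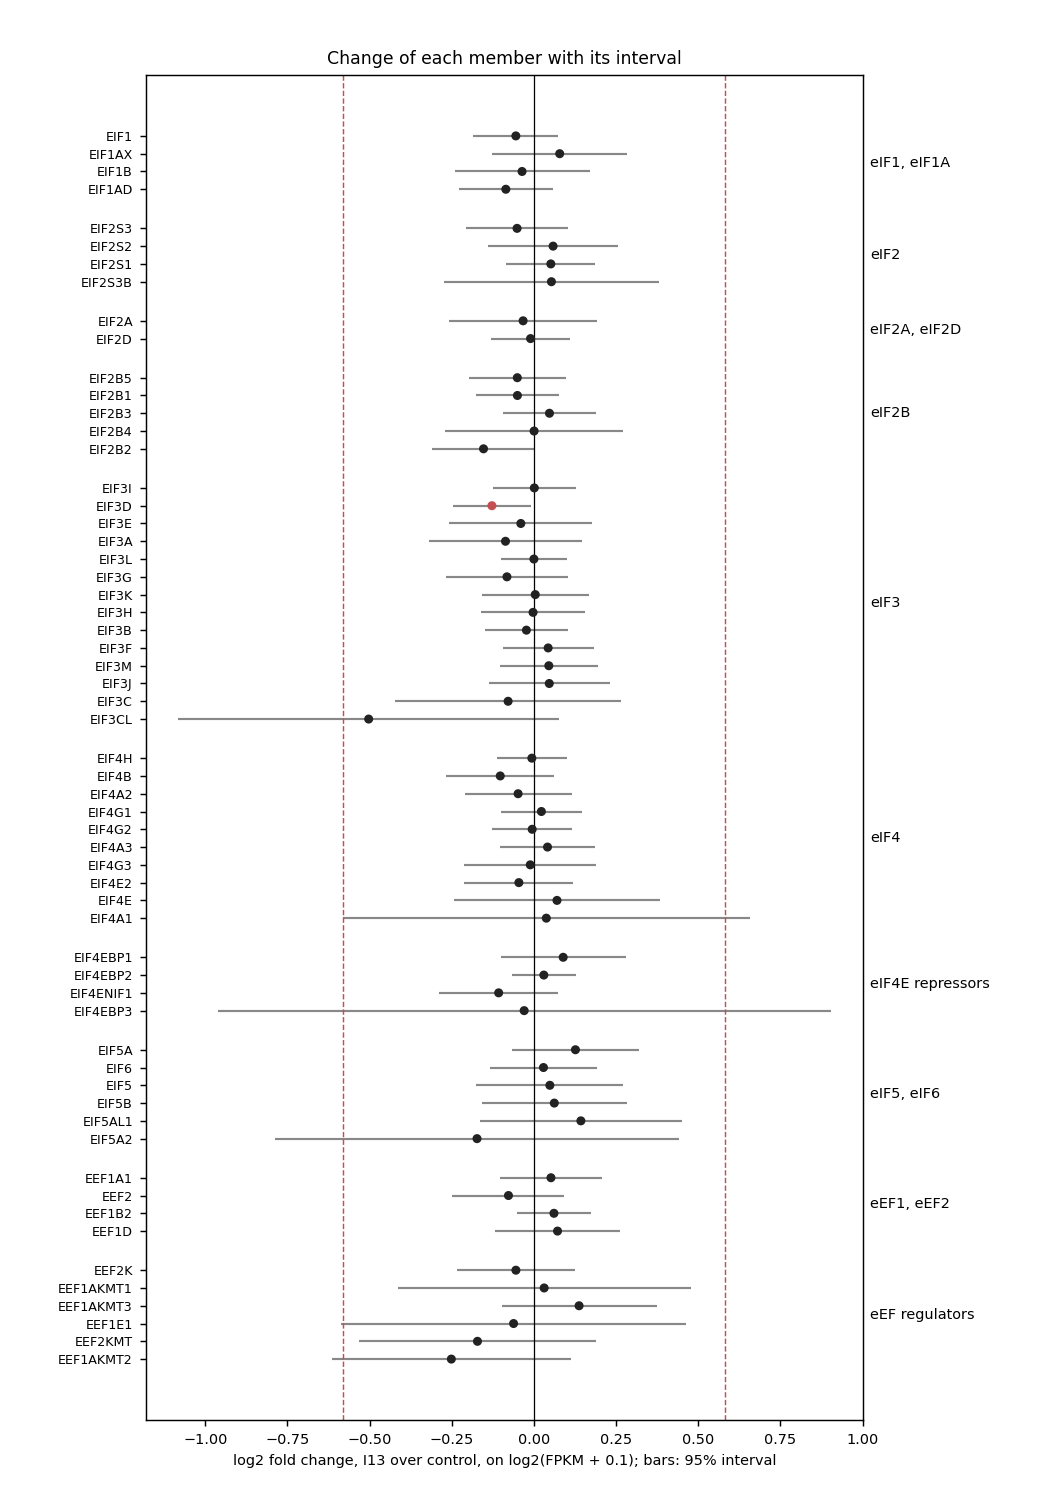
The log2 fold change of each tested member, I13 over control on the log2(FPKM + 0.1) scale, is plotted on the horizontal axis, with members on the vertical axis grouped by factor. Points are the estimates from 3 libraries per group, bars are 95% intervals, and dashed lines mark -0.58 and 0.58. The red point is EIF3D, and 53 of the 59 bars lie between the dashed lines.

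The levels of the members differed widely, and the sum was dominated by EEF1A1 and EEF2. Summed over the 61 members, expression was 7671 ± 136 FPKM (SD, n = 3) in control and 7694 ± 212 FPKM (SD, n = 3) in I13 libraries, or 2.54% to 2.69% of the summed FPKM of a library. EEF1A1 held 43.5% to 46.6% of this sum and EEF2 20.7% to 24.2%. FPKM is divided by the joined length of all annotated exons, so that genes with long or rarely used exons read lower. Of 64 pseudogenes of these families, 16 had a mean of at least 1 FPKM. Fragments may be shared between them and the members. In each group of values that follows, libraries stand in the order of replicates 1, 2 and 3.

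**Figure D2:**
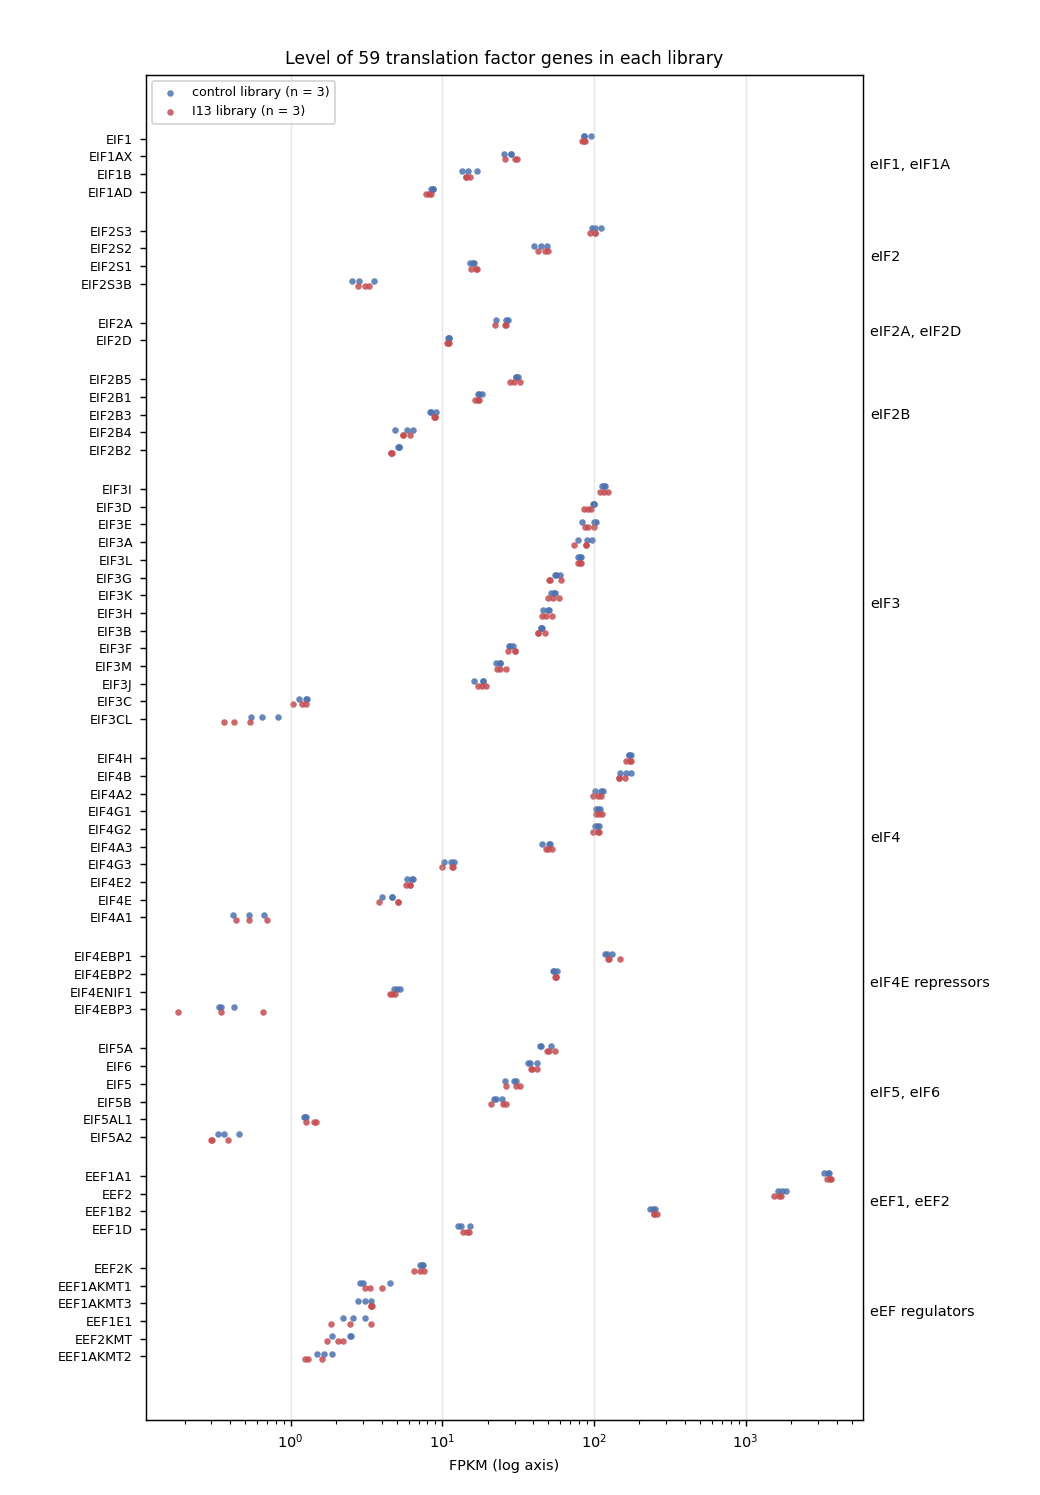
FPKM of the 59 tested members in each library, on a log axis, with members on the vertical axis grouped by factor and sorted by level. Blue points are the 3 control and red points the 3 I13 libraries. Between members the levels run from 0.358 FPKM for EIF5A2 to 3501 FPKM for EEF1A1, while the 6 points of most members lie close together.

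Of all members, the elongation factor genes EEF1A1, EEF2 and EEF1B2 had the highest levels. EEF1A1 (ENSG00000156508; chromosome 6, 73515750 to 73523797), which encodes the factor that brings aminoacyl-tRNA to the ribosome, had 3538, 3476 and 3300.2 FPKM in control and 3639, 3599 and 3451 FPKM in I13 libraries. The groups overlapped, and the log2 fold change was 0.052 (95% interval -0.10 to 0.21, adjusted p = 1 from limma), turning to -0.028 with quantile normalization. EEF1A2, the paralog of muscle and neurons, had no fragment in any library, which allows up to 0.00618 FPKM over the 6 libraries together. EEF1A1 was therefore at least 566255-fold higher, a bound for counting error only. A processed pseudogene of EEF1A1, EEF1A1P5, was listed with 958 FPKM, and the counting could have divided fragments between the gene and its copies. EEF2, the translocase, had 1738, 1626 and 1838 FPKM in control and 1667, 1719 and 1542 FPKM in I13 libraries. Its log2 fold change was -0.078 (95% interval -0.25 to 0.093). EEF1B2 and EEF1D encode subunits of the exchange factor that reloads eEF1A with GTP. EEF1B2 had 244 ± 9.37 FPKM (SD, n = 3) in control and 254 ± 6.91 FPKM (SD, n = 3) in I13 libraries. EEF1D (chromosome 8, 143579697 to 143599541), at 12.7, 13.4 and 15.2 FPKM in control and 13.6, 15.1 and 14.6 FPKM in I13 libraries, was the lowest of the 4 tested. Its exons overlap genes of the other strand over 34.0% of their length, and whether the counting used strand is not given in the sources used here. EEF1G was not analysed here.

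Regulators of elongation were expressed at low levels. EEF2K, the kinase that inhibits eEF2, had 7.51, 7.35 and 7.20 FPKM in control and 6.51, 7.63 and 7.12 FPKM in I13 libraries (log2 fold change -0.055, 95% interval -0.23 to 0.12). The lysine methyltransferases of eEF1A, EEF1AKMT1, EEF1AKMT2 and EEF1AKMT3, and that of eEF2, EEF2KMT, had means from 1.53 to 3.47 FPKM. EEF1AKMT2 was the lowest, at 1.87, 1.67 and 1.49 FPKM in control and 1.62, 1.31 and 1.25 FPKM in I13 libraries. Its log2 fold change of -0.25 had a 95% interval of -0.61 to 0.11, and the I13 values overlapped those of control. EEF1E1, a subunit of the aminoacyl-tRNA synthetase complex in spite of its name, had a mean of 2.60 FPKM, and 18.7% of its exon bases are shared with the readthrough gene EEF1E1-BLOC1S5.

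The eIF3 scaffold, which holds the small subunit and the mRNA together, had the most genes of any factor here. Its 14 genes summed to 758 ± 22.3 FPKM (SD, n = 3) in control and 740.3 ± 20.04 FPKM (SD, n = 3) in I13 libraries. EIF3D (ENSG00000100353; chromosome 22, 36510850 to 36529436) encodes a subunit that can itself bind the cap of some mRNAs. It had 99.7, 99.1 and 100.4 FPKM in control and 92.0, 96.01 and 86.1 FPKM in I13 libraries, and every I13 library was below every control library. This was a log2 fold change of -0.13 (standard error 0.0506, 95% interval -0.25 to -0.0086), with an adjusted p of 0.947 from limma and an unadjusted p of 0.0389. Between I13 2 and control 3, the libraries that stood apart, it was -0.064, and among the remaining 4 libraries -0.16. The unadjusted p from limma was 0.0864, 0.0833 or 0.079 when control 1, 2 or 3 was left out, 0.078 without I13 1 and 0.127 without I13 3, so that the call was lost in each of these. Without I13 2 it was 0.0122.

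The other eIF3 genes formed a ladder of levels. EIF3I, at 117, 114 and 118 FPKM in control and 116, 124 and 109.8 FPKM in I13 libraries, was the highest and had a log2 fold change of 0.0011 (95% interval -0.13 to 0.13), which was -0.0056 under median scaling. EIF3E (94.5 FPKM on average), EIF3A (86.1) and EIF3L (80.4) followed, then EIF3G (55.7), EIF3K (54.0), EIF3H (49.0) and EIF3B (44.8). EIF3F (28.9), EIF3M (24.1) and EIF3J (18.1), the loosely bound subunit, were lower. The exons of EIF3L share 41.1% of their bases with the gene AL022311.1 on the same strand. EIF3A, which forms the core of the complex, had 96.8, 90.4 and 78.8 FPKM in control and 88.1, 73.9 and 88.4 FPKM in I13 libraries, lowest in control replicate 3 and I13 replicate 2. Its unadjusted p from limma was 0.409, and 0.0474 with a term for that pair. The pair was picked from the same data, so p-values with this term are descriptions. EIF3C and EIF3CL, near-identical copies on chromosome 16, had means of only 1.196 and 0.558 FPKM, and fragments that match both copies cannot be assigned to either. EIF3CL had 0.827, 0.547 and 0.644 FPKM in control and 0.366, 0.543 and 0.423 FPKM in I13 libraries, which rested on 18 to 44 fragments. Its groups did not overlap, and the log2 fold change was -0.50 (95% interval -1.08 to 0.076, adjusted p = 0.954 from limma).

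The eIF2 genes encode the subunits that carry initiator tRNA. EIF2S3, for the gamma subunit that binds GTP and the tRNA, had 111, 101 and 96.7 FPKM in control and 102, 93.8 and 102 FPKM in I13 libraries (log2 fold change -0.051, 95% interval -0.21 to 0.10). EIF2S2, for the beta subunit, had a mean of 45.8 FPKM and EIF2S1, for the alpha subunit that the stress kinases phosphorylate, 16.1 FPKM. All 3 were lower in control replicate 3 and I13 replicate 2 than in any of the other 4 libraries. The ratio of EIF2S3 to EIF2S1 was 6.98, 6.25 and 6.38 in control and 6.05, 6.06 and 6.12 in I13 libraries, without overlap. This ratio and that of EIF2S3 to EIF2S2 were the 2 of 11 ratios between members whose groups did not overlap. The ratio of EIF2S2 to EIF2S1 overlapped, at 3.06, 2.79 and 2.68 in control and 2.94, 2.77 and 2.84 in I13 libraries. The share of 9.52% without overlap is for single genes, and none was taken for ratios between genes. The count of ratios is therefore no result about the members. The 2 ratios without overlap share EIF2S3 as numerator, and they were noticed after the values were seen. EIF2S3B had 2.54, 3.54 and 2.84 FPKM in control and 2.80, 3.29 and 3.11 FPKM in I13 libraries, from 106 to 147 fragments per library, and fragments may be shared with EIF2S3. EIF2A and EIF2D encode proteins that can place initiator tRNA without eIF2. EIF2A had 27.3, 26.5 and 22.6 FPKM in control and 26.4, 22.2 and 26.1 FPKM in I13 libraries. EIF2D had 11.1, 10.9 and 11.03 FPKM in control and 11.04, 10.99 and 10.8 FPKM in I13 libraries with a log2 fold change of -0.010 (95% interval -0.13 to 0.11).

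The eIF2B complex exchanges GDP for GTP on eIF2 and is the target of eIF2 phosphorylation. Its 5 genes summed to 68.4 ± 1.65 FPKM (SD, n = 3) in control and 66.5 ± 2.71 FPKM (SD, n = 3) in I13 libraries. EIF2B2 (chromosome 14, 75002911 to 75012366), for the beta subunit, was the lowest of them and did not overlap between the groups, at 5.18, 5.08 and 5.22 FPKM in control and 4.62, 4.69 and 4.58 FPKM in I13 libraries. This was a log2 fold change of -0.15 (standard error 0.0663, 95% interval -0.31 to 0.0029), with an adjusted p of 0.947 from limma. It was -0.15 among the 4 libraries and -0.15 in the pair that stood apart. Its unadjusted p from limma was 0.0533, or 0.0299 with a term for the pair, which was picked from the same data. Its exons overlap genes of the other strand over 23.6% of their length. EIF2B5, for the catalytic subunit, had 30.8, 30.9 and 31.8 FPKM in control and 28.0, 32.6 and 29.9 FPKM in I13 libraries and a log2 fold change of -0.051 (95% interval -0.20 to 0.10). EIF2B1, EIF2B3 and EIF2B4 had means of 17.4, 8.76 and 5.72 FPKM, and each overlapped between the groups.

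Cap binding and unwinding depend on eIF4E, the helicase eIF4A and the scaffold eIF4G. EIF4H and EIF4B, which encode helper proteins of the helicase, were the highest. EIF4H had 175, 169.5 and 171 FPKM in control and 172, 177 and 164 FPKM in I13 libraries (log2 fold change -0.0065, 95% interval -0.11 to 0.10). The means of EIF4B, EIF4A2, EIF4G1 and EIF4G2 were 157, 108, 108 and 105 FPKM. EIF4A3, the helicase of the exon junction complex, had 49.8 FPKM on average, EIF4G3 11.2, and EIF4E2, a cap-binding repressor, 6.10. EIF4E was listed with 4.67, 4.64 and 3.99 FPKM in control and 5.09, 3.84 and 5.14 FPKM in I13 libraries, over an exon length of 14067 bases. EIF4A1 had 0.415, 0.669 and 0.534 FPKM in control and 0.437, 0.530 and 0.702 FPKM in I13 libraries. Of its exon bases, 48.6% also belong to other genes of the same strand, among them the readthrough gene SENP3-EIF4A1, which itself had a mean of 0.0482 FPKM. Fragments on such bases can be lost as ambiguous, so the level of EIF4A1 is uncertain. EIF4E3 had 1 fragment in the 6 libraries together.

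The repressors that hold eIF4E away from eIF4G were led by EIF4EBP1. Expression of EIF4EBP1 was 119, 122 and 132 FPKM in control and 126, 148 and 123 FPKM in I13 libraries, with a log2 fold change of 0.089 (95% interval -0.10 to 0.28, adjusted p = 0.983 from limma). The highest library of each group was control 3 or I13 2. Without I13 2 the log2 fold change was 0.0070. With a term for the pair, which was picked from the same data, the unadjusted p from limma went from 0.306 to 0.0431. EIF4EBP2 had 55.1 ± 1.45 FPKM (SD, n = 3) in control and 56.3 ± 0.445 FPKM (SD, n = 3) in I13 libraries. EIF4ENIF1, which shuttles eIF4E to the nucleus and to P-bodies, had a mean of 4.86 FPKM. EIF4EBP3 had 0.336, 0.422 and 0.349 FPKM in control and 0.182, 0.347 and 0.663 FPKM in I13 libraries. This was 2 to 7 fragments per library, and 73.4% of its exon bases are shared with the readthrough gene ANKHD1-EIF4EBP3. A change of EIF4EBP3 was not detectable at this depth (95% interval -0.96 to 0.90).

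Start codon selection and subunit joining complete initiation. EIF1, which guards the fidelity of the start codon, had 95.3, 86.1 and 85.6 FPKM in control and 85.6, 87.5 and 83.6 FPKM in I13 libraries (log2 fold change -0.055, 95% interval -0.18 to 0.074). EIF1AX, its partner in scanning, had a mean of 28.3 FPKM and EIF1B, the paralog of EIF1, 14.9 FPKM. EIF1AD, which has a domain like that of eIF1A, was the lowest of this set, at 8.71, 8.76 and 8.45 FPKM in control and 8.46, 7.80 and 8.16 FPKM in I13 libraries. EIF5, the GTPase activator of eIF2, and EIF5B, the GTPase of subunit joining, had means of 29.3 and 23.7 FPKM. EIF6, which keeps the large subunit from joining early, had 39.5 FPKM on average. EIF5A, the hypusine-bearing factor that relieves stalled ribosomes, had 44.9, 44.3 and 52.5 FPKM in control and 50.3, 55.4 and 48.8 FPKM in I13 libraries. Its log2 fold change was 0.13 (95% interval -0.066 to 0.32, adjusted p = 0.983 from limma), 0.15 among the 4 libraries and 0.078 in the pair that stood apart. It was 0.20 without control 3 and 0.072 without I13 2. The unadjusted p from limma was 0.164, 0.0217 without control 3 and between 0.130 and 0.419 with any other library left out. It was 0.265 under median scaling, 0.234 with a block for the replicate number and 0.00797 with a term for the pair. That pair was picked from the same data. EIF5AL1, an intronless copy of EIF5A, had 1.22, 1.24 and 1.26 FPKM in control and 1.47, 1.42 and 1.26 FPKM in I13 libraries, each I13 value above each control value. The highest control and lowest I13 value were nearly equal, at 74 to 91 fragments per library, and fragments may be shared with EIF5A. EIF5A2 was low, at 0.457, 0.365 and 0.335 FPKM in control and 0.303, 0.300 and 0.386 FPKM in I13 libraries.

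Many members followed the pair of libraries that stood apart. Control replicate 3 and I13 replicate 2 were both below the other 4 libraries for 17 of the 59 members (28.8%), where 17.0% of all genes tested were, and both above for 11 (18.6%), where 10.3% were. Among genes with a mean of at least 10 FPKM the shares were 38.5% of 39 members against 23.3% below, and 25.6% against 25.5% above. These are descriptions, since the pair was picked from the same data. The members below came from most factors, with 3 of the 4 eIF2 genes, 5 of the 14 eIF3 genes, EIF2A, EIF1AX, EIF4A2, EIF4G2, EIF4G3, EIF5, EIF5B and EEF1E1 among them. EIF4E was one of these and EIF4EBP1 was above. The ratio of EIF4EBP1 to EIF4E was 33.1 and 38.5 in control replicate 3 and I13 replicate 2, and 24.0 to 26.2 in the other 4 libraries. EIF4EBP1 was above and EIF4E below the other libraries in this pair, so this gap was fixed in advance and is no further result. Within a group the coefficient of variation of a member had a median of 6.12% in control and 6.26% in I13 libraries.

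**Figure D3:**
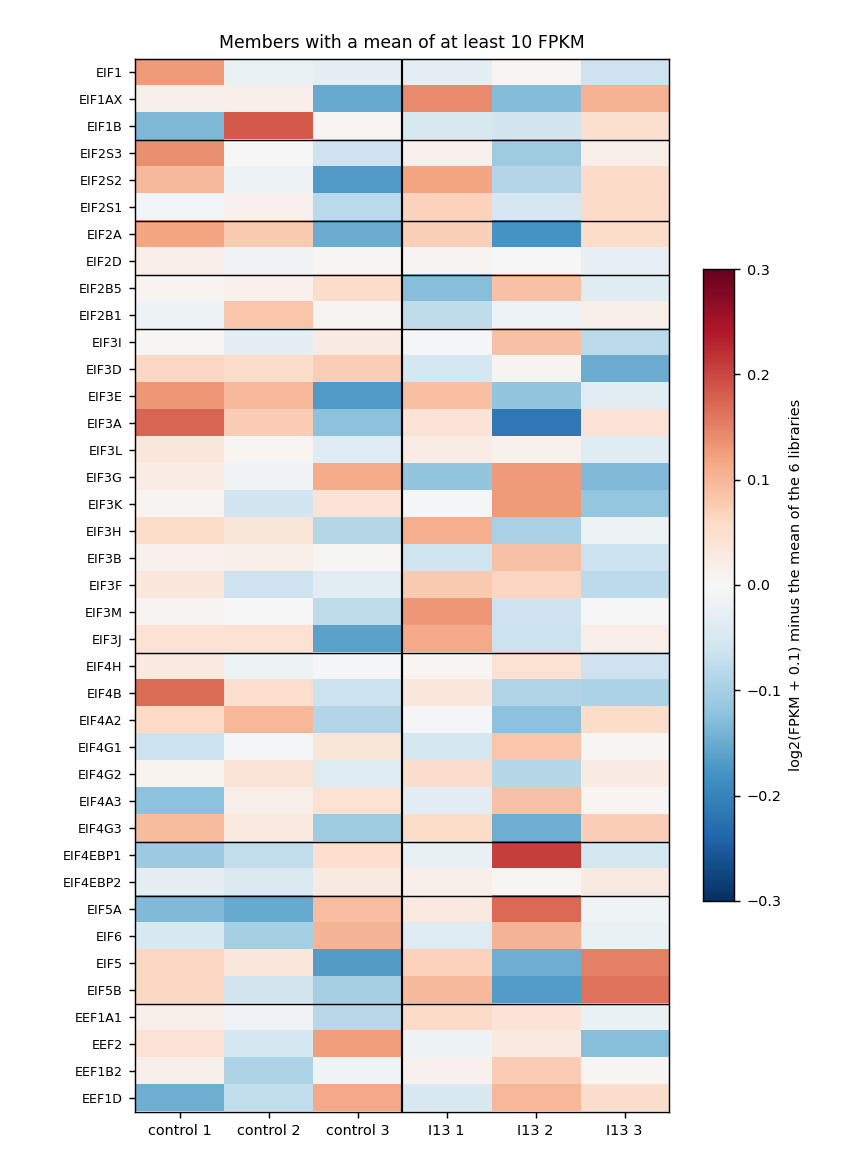
Deviation of each library from the mean of the 6 libraries, as log2(FPKM + 0.1), for the 39 members with a mean of at least 10 FPKM. Columns are the 3 control and 3 I13 libraries, rows are members grouped by factor, red is above and blue below the mean. Control 3 and I13 2 share their colour in 25 rows in which both lie beyond the other 4 libraries, 15 of them below and 10 above.

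The TOP mRNAs had fold changes of both signs. Of 9 such genes listed from general knowledge, 8 were tested, with 4 log2 fold changes above 0, 4 below, a median of 0.020 and a range from -0.10 to 0.072. The other 51 tested members had a median of -0.0065. For the 13 members with a tract in the RefSeq start the median was -0.010, with 6 above 0. No member of the TOP list had an unadjusted p under 0.05 from limma.

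Other translation genes were read from lists of eIF2 kinases and phosphatase subunits, mTOR and MNK pathway kinases, further cytosolic factors and mitochondrial factors. All 38 of these genes were tested. At the adjusted p limma called 0. An unadjusted p under 0.05 was found for 1 gene higher and 1 lower, where 2.55% of all genes tested passed higher and 2.59% lower. Full separation of I13 from control was seen for 2 of the 38, against a background of 9.52%. These counts were near or under the background and are no result about the 38 genes. Both genes are in the list of eIF2 kinases and phosphatase subunits, and whether that list stands out was not tested. EIF2AK3, or PERK, the eIF2 kinase of the endoplasmic reticulum, had 2.18, 2.33 and 1.77 FPKM in control and 3.04, 2.43 and 2.58 FPKM in I13 libraries, without overlap. Its log2 fold change was 0.35 (95% interval 0.0094 to 0.68), with an adjusted p of 0.947 from limma and of 0.700 from voom. PPP1R15A, or GADD34, which brings the phosphatase to eIF2, had 5.95, 5.75 and 5.76 FPKM in control and 5.42, 5.0 and 4.61 FPKM in I13 libraries, also without overlap. The log2 fold change was -0.21 (95% interval -0.41 to -0.023), with an adjusted p of 0.947 from limma and of 0.939 from voom. Its unadjusted p was 0.0327 from limma and 0.0606 from voom, so that the call was lost, while that of EIF2AK3 was 0.0454 from limma and 0.0124 from voom. ATF4, the transcription factor translated when eIF2 is phosphorylated, had a log2 fold change of -0.019 (95% interval -0.12 to 0.083). MTOR, at 13.8 FPKM on average, had -0.040 (95% interval -0.19 to 0.11), and PABPC1, the poly(A) binding protein, at 647 FPKM, had -0.027 (95% interval -0.15 to 0.092). The median log2 fold change of the 38 genes was 0.0062.

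**Figure D4:**
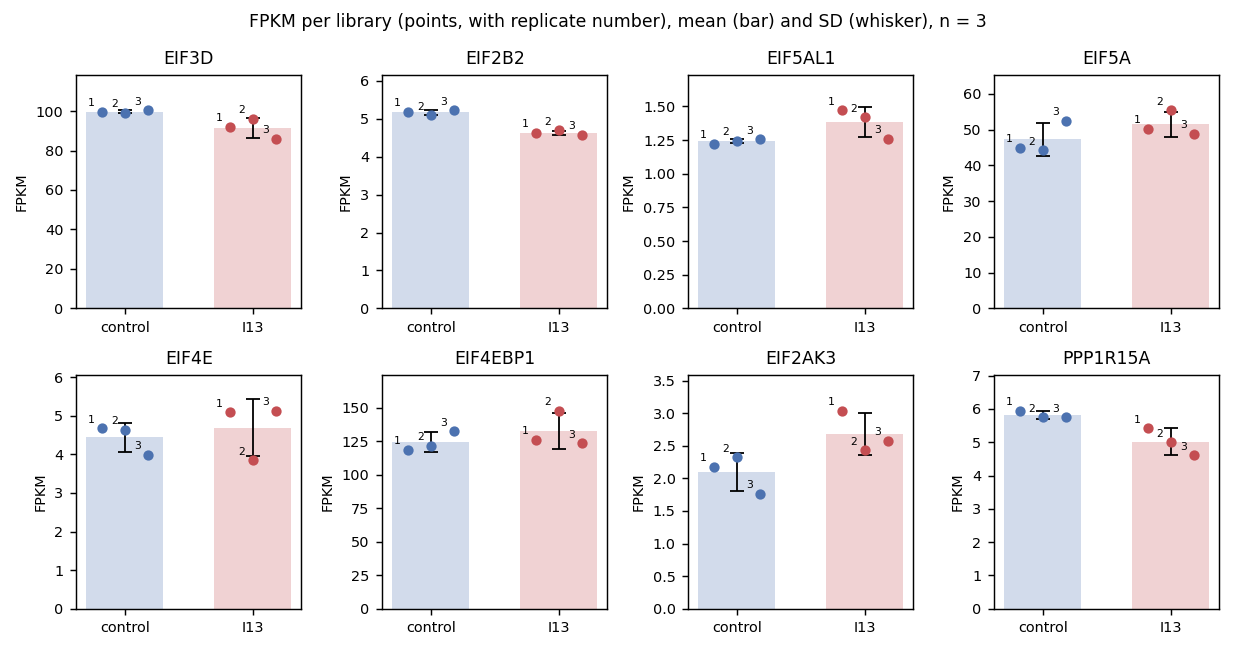
FPKM of 6 members and of EIF2AK3 and PPP1R15A, with the axis from 0. Points are libraries with their replicate number, bars are means and whiskers are SD (n = 3). EIF3D, EIF2B2 and PPP1R15A were lower in each I13 library than in each control library, EIF5AL1 and EIF2AK3 were higher, and in EIF4E and EIF4EBP1 control 3 and I13 2 stand apart from the other libraries of their group.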

How the data were processed

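Messenger RNA libraries of Kasumi-1 cells, 3 control and 3 with I13, were made with a TruSeq Stranded mRNA kit. The authors deposited FPKM values per Ensembl gene and library, without pooling of replicates. The submitters' processing notes name Trimmomatic, HISAT2, Cufflinks, HTSeq and hg38. Versions, annotation and strand setting were not given in the sources used here.

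Names, positions and exon lengths were taken from GENCODE release 29 (GRCh38), which names 32244 of the 32364 identifiers. Of 27095 genes above 0, 27002 had a length there, and 25773 of these (95.4%) came to whole fragments (tolerance 0.01) in each of the 6 libraries. A step shared by their values gave whole fragments for 1319 of the other genes above 0, with or without a length, and 3 were not recovered. Depth was 16566742 to 17221345 fragments in control and 15281052 to 16682550 in I13 libraries, and a count of 0 allows up to 3 fragments. Intervals for levels at 0 cover counting error only.

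Groups were compared on log2(FPKM + 0.1) by limma 3.58.1 (R 4.3.3), two-sided and with a variance trend, over 18726 genes whose mean FPKM reached 0.1, with Benjamini-Hochberg adjusted p-values. Fold changes on this scale understate those of low genes. The fit was also run on simulated counts with the same spread setting for every gene and no pair of libraries that stood apart. That run therefore does not measure the error rates of the fit in these data. Replicates of a group differed beyond sampling noise (chi-square per gene 3.09 to 8.23). Alternatives were other pseudocounts, filters, scalings and variance models, voom on the fragments of genes averaging 10 or more, a replicate block, a term for control 3 and I13 2 together, and each library left out. The pair of control 3 and I13 2 was picked from these same data.

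The members, lists and alternatives were chosen with earlier results of these data known. Library values are given for members with an unadjusted p under 0.05, for those averaging 1 FPKM or more whose groups did not overlap, and for the highest and lowest tested member of each factor. Further members given with library values (EEF2, EIF3A and EIF4E) and the ratios were chosen after their values were seen.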

Additional observations from a re-analysis of the deposited data

How the results depend on the processing

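At the adjusted p and fold threshold 0 members were called under every alternative run. The count at an unadjusted p under 0.05 was 1 lower and 0 higher. With no filter it was 2 lower, under median scaling 0 lower, with the replicate block 0 lower, and with the term for the library pair 3 lower (EIF2B2, EIF3A and EIF3D) and 2 higher (EIF4EBP1 and EIF5A). With each library left out in turn it was 0 to 2 lower and 0 to 1 higher: EIF4B lower and EIF5A higher without control 3, EIF3D and EIF3G lower and EIF5B higher without I13 2, and 0 without any of the other 4. Limma without a trend passed EIF3CL in place of EIF3D. Shares of all genes passing were taken only for the main fit and voom. The counts under the other alternatives have no such share beside them and are no result about the members. The unadjusted p of EIF3D from limma was 0.0904 under median scaling, 0.0826 with the replicate block and 0.132 without a trend, at log2 fold changes of -0.13, and 0.013 with quantile normalization and 0.0177 with the term for the library pair. The cause of these shifts was not tested. Leaving out a library moved the members' median log2 fold change to -0.023 at the lowest and 0.0005 at the highest. Fold changes near 0 turned sign for EIF3I under median scaling (-0.0056), EIF4EBP3 with a pseudocount of 1 (0.015) and EEF1A1 with quantile normalization (-0.028). With a library left out they ranged from -0.096 to 0.0051 for EIF2S3, -0.050 to 0.18 for EIF2S3B, -0.12 to 0.047 for EIF2A, -0.11 to 0.00050 for EIF2B5, -0.043 to 0.042 for EIF3I, -0.032 to 0.023 for EIF4H, -0.12 to 0.18 for EIF4A1, -0.40 to 0.32 for EIF4EBP3 and -0.11 to 0.0042 for EEF2K. The sign held but the size varied for EIF1 (-0.082 to -0.0051, the latter without control 1), EIF4EBP1 (0.0070 to 0.14), EIF5A (0.072 to 0.20) and EEF1D (0.016 without control 1 to 0.15 without control 3). Same-numbered libraries were not paired in the main fit, and the labels name no pairing. Over 4133 genes the correlation of their deviations from the group means was 0.32, -0.38 and -0.30 for numbers 1, 2 and 3. It was 0.51 between control 3 and I13 2. Since those libraries stood apart in the same values, the correlations cannot show whether cultures were paired by number. Depth limits members with few fragments, such as EIF4EBP3.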
